A study of Bos taurus with 10 samples.

Results

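Matriptase (ST14), the Kunitz-type inhibitor genes SPINT1 and SPINT2, and PRSS22, a further gene of a trypsin-like serine protease, were followed across 5 tissues of cattle at peak lactation. These 4 genes, taken by their current symbols, are 4 of 4366 named genes on the array and are represented by 7 of 5472 named elements. An element is 1 cDNA clone, printed as 2 adjacent spots. ST14, SPINT2 and PRSS22 each had 2 clones and SPINT1 had 1, and all 4 genes had a value on all 10 arrays, as did 4307 named genes.

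Matriptase is a serine protease anchored in the plasma membrane of epithelial cells, where it cleaves and activates other proteins at the cell surface. SPINT1 and SPINT2 encode the transmembrane inhibitors HAI-1 and HAI-2, which bind matriptase and related proteases and were first described as inhibitors of the activator of hepatocyte growth factor. PRSS22 encodes a tryptase, which in humans can activate urokinase. In secretory and lining epithelia these proteases and inhibitors are known for their part in barrier formation and in growth factor activation.

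The tissues were liver, mammary gland, subcutaneous adipose tissue, mesenteric adipose tissue and omental adipose tissue, all from cows at peak lactation with no further treatment named in the labels. Each tissue was 1 RNA sample on 2 arrays, once labelled with Cy3 and once with Cy5, against a common reference mixed from tissues. Breed, age and the number of animals behind a sample are not given in the labels. All values are log2 ratios of tissue over reference with the array's median set to 0, and per-array values are given with the tissue in Cy3 first and the tissue in Cy5 second. A level is therefore relative to the reference mixture for that gene alone, and levels of different genes cannot be set against each other.

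The difference between tissues was taken within each dye orientation and then averaged, and the figure after ± is the distance from that mean to either orientation. With 1 RNA sample per tissue there is no spread between animals, and no p-value is given. A gene was called different when the mean difference reached 1 log2 unit (2-fold) with the same sign in both orientations. In bulk tissue, fewer cells of a type and less RNA per cell cannot be told apart. Between 15970 and 16245 spots per array held a value. Which dye is on top of the ratio is not spelled out in the labels, and the direction used here is the likely one: with it, 3 of 4 measured hepatocyte markers were higher in liver than in mammary gland (median level 4.11 in liver and -1.51 in mammary gland) and 4 of 4 mammary epithelial markers (EHF, ESRP1, MFGE8, MUC1) were lower in liver (median level -0.87 in liver and 3.50 in mammary gland). Under the opposite direction every sign below would turn. The link from spots to genes was rebuilt from the data, so a single clone may carry a wrong name.

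ST14 was highest in the mammary gland on both of its clones. The clone on source plate 11 stood at 0.93 and 2.34 in mammary gland, against -0.17 and 0.44 in liver. In the fat depots it stood at 0.07 and 0.51 in subcutaneous, 0.06 and 0.36 in mesenteric and 0.01 and 0.24 in omental adipose tissue. Both mammary arrays lay above every other array for this clone, and the means of the other tissues lay between 0.13 and 0.29.

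The clone on plate 6 stood at 0.95 and 2.07 in mammary gland, against 0.83 and 0.73 in liver. In the fat depots it stood at -0.04 and 0.38 in subcutaneous, 0.07 and 0.07 in mesenteric and 0.09 and 0.21 in omental adipose tissue. Its mammary arrays again lay above all others, but the step down to liver was 0.73 and did not reach 2-fold. The 2 ST14 clones correlated at r = 0.86 over the 10 arrays, which share RNA within a tissue.

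As a gene, ST14 differed by 1.40 ± 0.51 log2 units (2.64-fold) between mammary gland and the mean of the 3 adipose depots. It was higher in mammary gland than in each depot taken alone, by 1.34 ± 0.42 against subcutaneous, 1.43 ± 0.55 against mesenteric and 1.43 ± 0.55 against omental adipose tissue. Among all named genes 2.88% were higher in mammary gland than in adipose tissue by the same rule, and ST14 was number 73 of 4313 from the top. The liver minus mammary gland difference was -1.11 ± 0.50, which rested on the clone on plate 11 (-1.49 ± 0.40) more than on the clone on plate 6 (-0.73 ± 0.61, not past 2-fold). Both differences were smaller with the tissue in Cy3 (0.89 against adipose tissue and -0.61 for liver minus mammary gland, neither past 2-fold) than with the tissue in Cy5 (1.91 and -1.62). Between liver and the adipose mean ST14 stood at 0.29 ± 0.00, and between mesenteric and omental adipose tissue at 0.00 ± 0.01. These small ± values do not carry the gap between the clones. For liver minus the adipose mean the plate 6 clone read 0.65 ± 0.14 and the plate 11 clone -0.07 ± 0.14. For mesenteric minus omental adipose tissue they read -0.08 ± 0.05 and 0.08 ± 0.04.

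**Figure D1:**
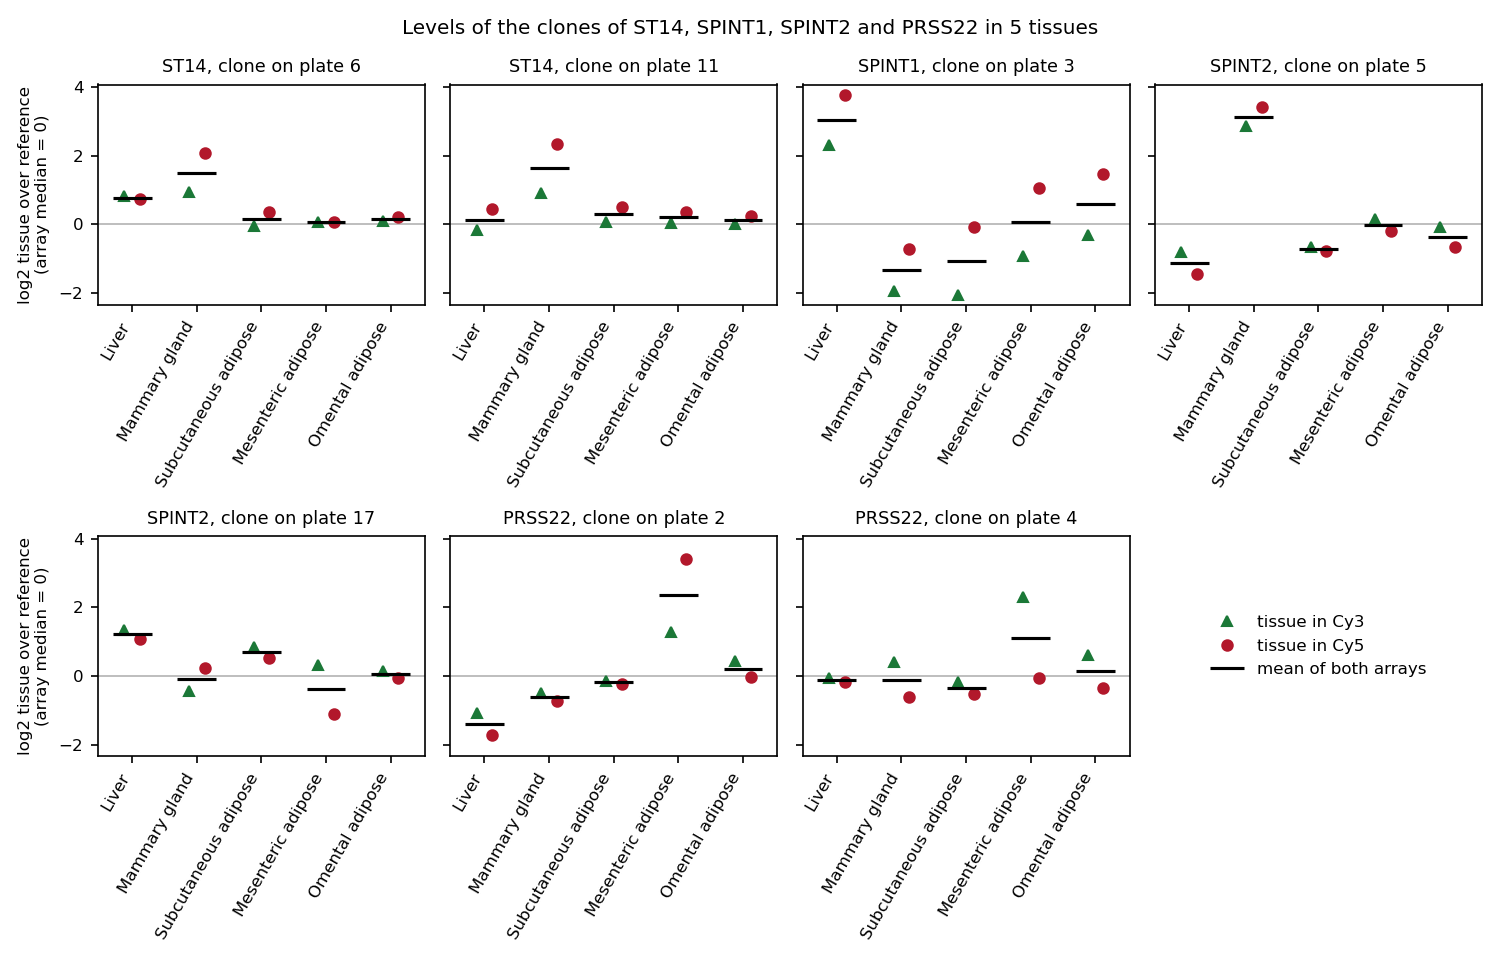
Levels of the 7 clones in 5 tissues, as log2 tissue over reference with the array median at 0, with the tissue in Cy3 as triangles, in Cy5 as circles and their mean as a bar. Both ST14 clones and the SPINT2 clone on plate 5 are highest in mammary gland, SPINT1 is highest in liver with a gap between dyes in every tissue, and the SPINT2 clone on plate 17 and both PRSS22 clones follow other patterns.

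SPINT2, whose product HAI-2 inhibits matriptase and related proteases, was measured by clones that disagreed. The clone on plate 5 stood at 2.86 and 3.43 in mammary gland, against -0.80 and -1.45 in liver. In the fat depots it stood at -0.65 and -0.78 in subcutaneous, 0.15 and -0.20 in mesenteric and -0.09 and -0.67 in omental adipose tissue. Every array of another tissue lay at 0.15 or below, and the step from mammary gland to the next tissue, mesenteric adipose, was 3.17.

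For this clone the mammary gland minus adipose difference was 3.52 ± 0.46 log2 units (11.4-fold) and the liver minus mammary gland difference -4.27 ± 0.61 (19.3-fold higher in mammary gland). It was higher in mammary gland than in subcutaneous adipose tissue by 3.86 ± 0.35, than in mesenteric by 3.17 ± 0.46 and than in omental by 3.52 ± 0.58. Among the 4 remaining tissues the neighbours in the order of levels, mesenteric, omental and subcutaneous adipose tissue and liver, were not apart by the rule. The ends of that order were: liver minus mesenteric adipose tissue was -1.10 ± 0.15.

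The clone on plate 17 stood at 1.35 and 1.08 in liver, against -0.44 and 0.23 in mammary gland. In the fat depots it stood at 0.84 and 0.53 in subcutaneous, 0.33 and -1.11 in mesenteric and 0.14 and -0.05 in omental adipose tissue. Here liver had the highest mean (1.22) and mammary gland stood at -0.10, unlike on the other clone, and no neighbouring tissues were apart. Its liver minus mammary gland difference was 1.32 ± 0.47. The 2 SPINT2 clones correlated at r = -0.40 over the 10 arrays. With the ST14 clones on plates 11 and 6, the SPINT2 clone on plate 5 correlated at r = 0.81 and 0.71. The SPINT2 clone on plate 17 correlated with them at r = -0.23 and 0.13.

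The clones also differed in how well their duplicate spots agreed. The median gap between the spots of the plate 5 clone was 0.08 log2 units, with a largest gap of 0.18. For the plate 17 clone the median gap was 0.50 and the largest 2.06, in mesenteric adipose tissue with the tissue in Cy3, where the spots read -0.71 and 1.36. Over all elements the median gap was 0.11, and 92.8% of elements had a smaller gap than the plate 17 clone. Which clone reports SPINT2 was not tested.

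The mean of both clones gave SPINT2 a mammary gland minus adipose difference of 1.65 ± 0.56 and a liver minus mammary gland difference of -1.47 ± 0.54. When the 10% of elements with the widest duplicate gaps were left out, a choice made after seeing the data that removes the plate 17 clone, these values became 3.52 and -4.27. With the tissues in Cy3 alone, the liver minus mammary gland value of the mean was -0.94 and no longer past 2-fold.

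**Figure D2:**
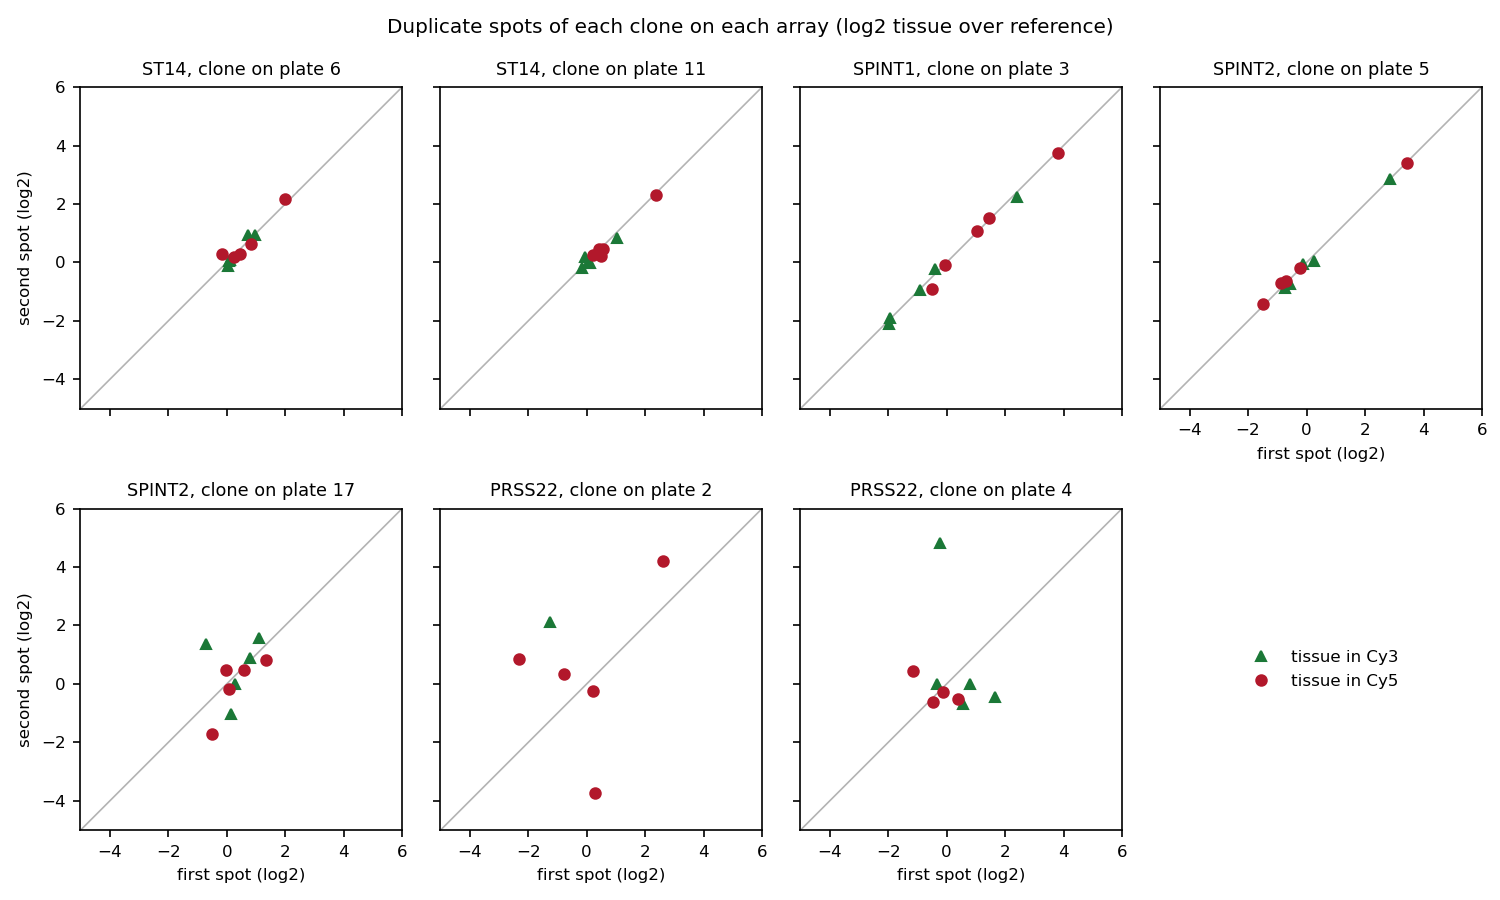
Second spot against first spot of each clone on each array, both as log2 tissue over reference, with arrays carrying the tissue in Cy3 as triangles and in Cy5 as circles; the line marks equal values. The spots of ST14, SPINT1 and the SPINT2 clone on plate 5 lie along the line, with no gap over 0.43, while those of PRSS22 lie up to 5.05 apart.

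SPINT1, whose product HAI-1 is the best known partner of matriptase, was highest in liver and had its lowest mean in mammary gland. Its clone on plate 3 stood at 2.32 and 3.79 in liver, against -1.93 and -0.71 in mammary gland. In the fat depots it stood at -2.05 and -0.08 in subcutaneous, -0.92 and 1.06 in mesenteric and -0.31 and 1.48 in omental adipose tissue. Both liver arrays lay above every other array, and the step from liver to omental adipose tissue, the next in order, was 2.47. Below that the neighbours omental, mesenteric, subcutaneous adipose tissue and mammary gland overlapped between their arrays, although mesenteric lay above subcutaneous adipose tissue by 1.13 ± 0.01 within orientations.

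Every tissue gave SPINT1 a higher ratio when it was in Cy5. The Cy5 minus Cy3 gap averaged 1.69 ± 0.34 over the 5 tissues (SD over tissues), and 99.3% of elements had a smaller mean gap in size. The part of the gap that the tissues share cancels in differences taken within an orientation. The liver minus mammary gland difference repeated closely, at 4.25 with the tissue in Cy3 and 4.50 with the tissue in Cy5. The gap was not equal in all tissues, and the mammary gland minus adipose mean difference repeated less well, at -0.835 and -1.535. The duplicate spots of SPINT1 lay a median of 0.08 apart. A dye gap of this kind was not particular to SPINT1. The hepatocyte markers TF, RBP4 and SLC10A1 and the complement genes C1R, C1S and C2 also read higher with each tissue in Cy5. In liver RBP4 stood at 2.59 and 6.50 and C1R at 3.31 and 6.08, but C1RL at 2.35 and 2.48. What sets the gap was not tested.

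The liver minus mammary gland difference of SPINT1, 4.38 ± 0.12 (20.8-fold), was number 21 of 4325 from the top. Liver minus the adipose mean was 3.19 ± 0.23 (9.13-fold), and liver minus each depot was 4.12 ± 0.25 for subcutaneous, 2.99 ± 0.26 for mesenteric and 2.47 ± 0.17 for omental adipose tissue. Mammary gland was lower than mesenteric adipose tissue by -1.39 ± 0.38 and than omental by -1.91 ± 0.29, whereas against subcutaneous adipose tissue it stood at -0.26 ± 0.38 with opposite signs in the orientations. With the tissue in Cy3 alone the mammary gland minus adipose mean difference was -0.83, and with quantile normalisation -0.98, neither past 2-fold. Between the depots SPINT1 was lower in subcutaneous than in the visceral mean, at -1.39 ± 0.04 (2.62-fold), against 3.72% of all genes called lower there. Without centring the arrays this value was -0.76 and not past 2-fold. Mesenteric minus omental adipose tissue was -0.52 ± 0.09.

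The markers measured beside SPINT1 moved in both ways in liver. Of 7 measured markers of bile duct and other simple epithelia, 1 was higher in liver than in mammary gland (KRT18, a keratin that hepatocytes share). In the same comparison 3 were lower (KRT19, EPCAM and CDH1), where 9.34% of all genes were called higher and 4.44% lower. The list's median level was -0.41 in liver and 0.35 in mammary gland. Against the adipose mean 2 of the 7 were higher in liver, KRT8 at 1.46 ± 0.17 and KRT18 at 1.76 ± 0.12. There 0 were lower, where 7.28% of all genes were called higher and 6.06% lower. The hepatocyte markers TF, RBP4 and SLC10A1 stood 5.66 ± 0.64, 7.63 ± 0.35 and 5.56 ± 0.09 above mammary gland, and APOA1 at 0.54 ± 0.52 was not called. KRT19 stood at -3.21 ± 0.50 in this comparison and EPCAM at -1.18 ± 0.31. The part of these markers in the SPINT1 difference was not tested, and SPINT1 rests on 1 clone.

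PRSS22 could not be measured with the precision of the other genes. Its clone on plate 2 had both spots on only 6 of 10 arrays, and where both were present they lay a median of 2.38 log2 units apart. The clone on plate 4 had both spots on 9 arrays, with a median gap of 0.90 and a largest gap of 5.05, in mesenteric adipose tissue with the tissue in Cy3, where the spots read -0.23 and 4.81. Gaps were smaller than these in 99.6% and 96.3% of all elements.

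The plate 2 clone of PRSS22 stood at -1.07 and -1.73 in liver, -0.49 and -0.74 in mammary gland and -0.14 and -0.22 in subcutaneous adipose tissue, and at 1.29 and 3.40 in mesenteric and 0.43 and -0.02 in omental adipose tissue. The plate 4 clone stood at -0.06 and -0.19 in liver, 0.41 and -0.62 in mammary gland and -0.16 and -0.53 in subcutaneous adipose tissue, and at 2.29 and -0.05 in mesenteric and 0.61 and -0.34 in omental adipose tissue. Mesenteric adipose tissue had the highest mean on both clones, but on the plate 4 clone its array in Cy5 (-0.05) lay among those of the other tissues.

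As a gene PRSS22 was called higher in mesenteric than in omental adipose tissue, at 1.57 ± 0.29 (2.96-fold), where 0.829% of all genes were called higher. It was called lower in liver than in the adipose mean (-1.31 ± 0.02) and in subcutaneous than in visceral adipose tissue (-1.22 ± 0.09). All 3 calls involve the mesenteric arrays, and both clones are among the 10% of elements with the widest duplicate gaps, so that leaving those elements out leaves no value for PRSS22. Taken alone, the plate 2 clone was called in all 3 comparisons and the plate 4 clone in none of them. The plate 4 clone read -0.43 ± 0.55 for liver minus the adipose mean, with opposite signs in the orientations. For subcutaneous minus visceral adipose tissue it read -0.975 ± 0.64. The small ± of the gene means does not carry the disagreement. For mesenteric minus omental adipose tissue the plate 2 clone read 0.87 and 3.43 and the plate 4 clone 1.68 and 0.29. The subcutaneous minus visceral value was -0.59 without centring.

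**Figure D3:**
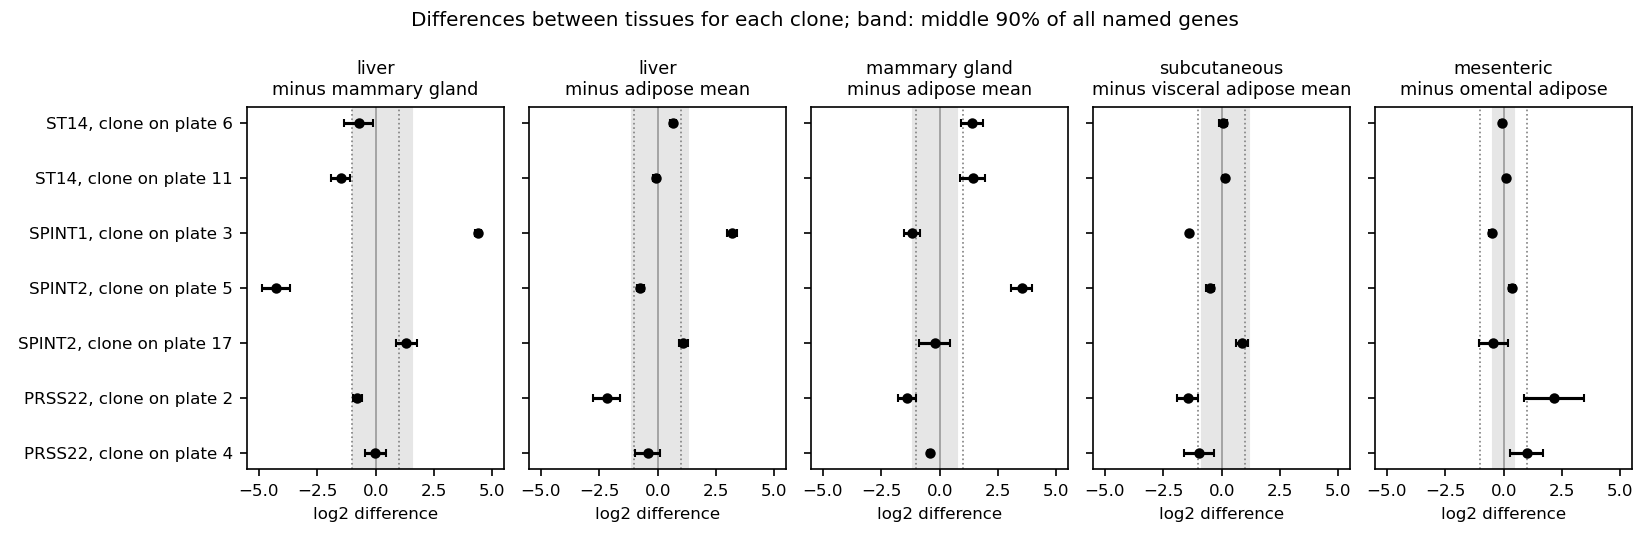
Differences between tissues for each clone in log2 units, as the mean of both dye orientations with the error bar reaching to either orientation; dotted lines mark 2-fold, and the grey band holds the middle 90% of all named genes. SPINT1 and the SPINT2 clone on plate 5 lie outside the band on opposite sides in liver minus mammary gland, at 4.38 and -4.27.

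Counted over the 4 genes, 3 were called different between liver and mammary gland, where 13.8% of 4325 genes were: SPINT1 was higher in liver (9.34% of genes were), and ST14 and SPINT2 were lower (4.44% were). Between liver and adipose tissue 2 of 4 were called (SPINT1 higher, PRSS22 lower), where 13.3% of genes were, 7.28% higher and 6.06% lower. Between mammary gland and adipose tissue 3 of 4 were called (ST14 and SPINT2 higher, SPINT1 lower), where 9.6% of genes were, 2.88% higher and 6.72% lower. The subcutaneous against visceral comparison called 2 of 4 (SPINT1 and PRSS22, both lower), where 9.95% of genes were called (6.23% higher and 3.72% lower). Mesenteric against omental adipose tissue called 1 of 4 (PRSS22, higher), where 1.41% of genes were called (0.829% higher and 0.576% lower). The median difference of all genes lay between -0.06 and 0.01 in these comparisons. The comparisons share tissues and are not independent. The SPINT2 calls are of the mean of clones that disagreed. In liver minus mammary gland the plate 5 clone was called lower (-4.27) and the plate 17 clone higher (1.32). In mammary gland minus adipose tissue the plate 5 clone was called higher (3.52), while the plate 17 clone stood at -0.21 and was not called. PRSS22 is counted although its duplicate spots disagreed and its plate 4 clone alone was not called in any of these comparisons.

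A list of proteases and substrates around matriptase had 11 of its members measured beyond the genes above. In mammary gland against adipose tissue 1 of 11 was higher and 1 lower, where 2.88% and 6.72% of all genes were (median 0.25, against -0.05 over all genes). In liver against mammary gland 0 were higher and 2 lower, where 9.34% and 4.44% of all genes were (median -0.59, against -0.01). In liver against adipose tissue 0 of 11 passed either way, where 13.3% of all genes did (median -0.27, against -0.06). Subcutaneous against visceral adipose tissue had 1 of 11 higher and 0 lower, where 6.23% and 3.72% of all genes were (median -0.15), and mesenteric against omental had 0 of 11, where 1.41% were (median -0.10). With 11 genes, counts of 0 to 2 are too small to be a result about the list. This holds also where 2 of 11 were lower against 4.44% of all genes.

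The gene of this list called higher in mammary gland than in adipose tissue, like ST14, was SCNN1A. SCNN1A encodes the alpha subunit of the epithelial sodium channel, a channel opened by proteolysis at the cell surface. It stood at 1.80 and 2.81 in mammary gland, against 0.41 and 0.32 in liver and between 0.12 and 0.56 on the arrays of the fat depots. Its mammary arrays lay above all others, and the mammary gland minus adipose difference was 2.03 ± 0.57 (4.07-fold). SCNN1G, the gamma subunit, stood at 0.20 ± 0.38 in the same comparison and was not called. In this list EPCAM, CDCP1, PLAUR and PRSS23 also had their highest mean in mammary gland, but were not called against adipose tissue.

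EPCAM, an epithelial adhesion protein that matriptase can cleave in human and mouse epithelia, was lower in liver than in mammary gland at -1.18 ± 0.31. Its levels were -1.22 and -0.28 in liver and 0.28 and 0.59 in mammary gland, and mammary gland minus adipose tissue was 0.47 ± 0.05, not past 2-fold. CDCP1, a further surface substrate, stood at -0.90 ± 0.06 in liver minus mammary gland, and TMPRSS4, another membrane serine protease, at 0.13 ± 0.37. Neither was called.

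PLAU, the urokinase gene whose product is a substrate of both matriptase and human PRSS22, had its own pattern. It stood at 0.93 and 1.13 in subcutaneous adipose tissue, against -1.47 and -1.62 in mesenteric and -0.88 and -1.25 in omental adipose tissue, a difference of 2.34 ± 0.23 (5.05-fold) to the visceral mean. It was lower in mammary gland than in the adipose mean at -1.28 ± 0.09, a call that rests on the subcutaneous depot: the mean level was -1.80 in mammary gland, against -1.54 in mesenteric and -1.06 in omental adipose tissue, less than 2-fold apart. All 4 measured myeloid markers were also called higher in subcutaneous than in visceral adipose tissue, where 6.23% of all genes were. Their median level was 5.60 there, against 1.27 in mesenteric and 1.55 in omental adipose tissue. The part of these markers in the PLAU difference was not tested. The urokinase receptor gene PLAUR stood at 0.10 ± 0.33 in the same comparison.

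Of the HGF and MET list, 5 genes were measured. MET, the receptor of hepatocyte growth factor, stood at -0.09 ± 0.24 in liver minus mammary gland and at 0.55 ± 0.03 in mammary gland minus adipose tissue, and was not called in any of the 5 comparisons. CD44, a surface glycoprotein that can act as a coreceptor of MET, was the gene of this list that was called: it was lower in liver than in adipose tissue (-2.65 ± 0.05, 6.26-fold) and than in mammary gland (-1.27 ± 0.03), lower in mammary gland than in adipose tissue (-1.38 ± 0.08) and higher in subcutaneous than in visceral adipose tissue (2.52 ± 0.03). The mammary gland call rests on the subcutaneous depot, since the mean level was -2.28 in mammary gland, against -1.71 in mesenteric and -1.76 in omental adipose tissue, less than 2-fold apart. The myeloid markers called higher in subcutaneous adipose tissue, 4 of 4 where 6.23% of all genes were, stand beside the CD44 difference as well. Among them CYBB stood at 4.33 ± 0.04 and S100A12 at 5.33 ± 0.09. The part of these markers in the CD44 difference was not tested. GAB1, GRB2 and STAT3, which carry signals from MET and many other receptors, were not called.

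Among inhibitors, 3 further genes that encode Kunitz domains were measured. TFPI, the inhibitor of the tissue factor pathway, stood at -2.12 and -1.62 in liver, against values between -0.59 and -0.18 on the arrays of the fat depots, and was lower in liver than in adipose tissue at -1.47 ± 0.26. APLP2 and COL7A1 were not called in any comparison. By gene means SPINT1 was the one Kunitz gene of these that was called higher in liver than in both mammary gland and adipose tissue; of the SPINT2 clones, that on plate 17 was also called in both (1.32 ± 0.47 and 1.10 ± 0.19). In the wider list of trypsin-fold proteases 4 of 6 measured genes, the complement proteases C1R, C1S, C1RL and C2, were higher in liver than in mammary gland, by 2.18 to 4.64 log2 units, where 9.34% of all genes were called higher. Of 3 measured serpins, SERPING1, which inhibits C1R and C1S, was higher by 3.33 ± 0.14.

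**Figure D4:**
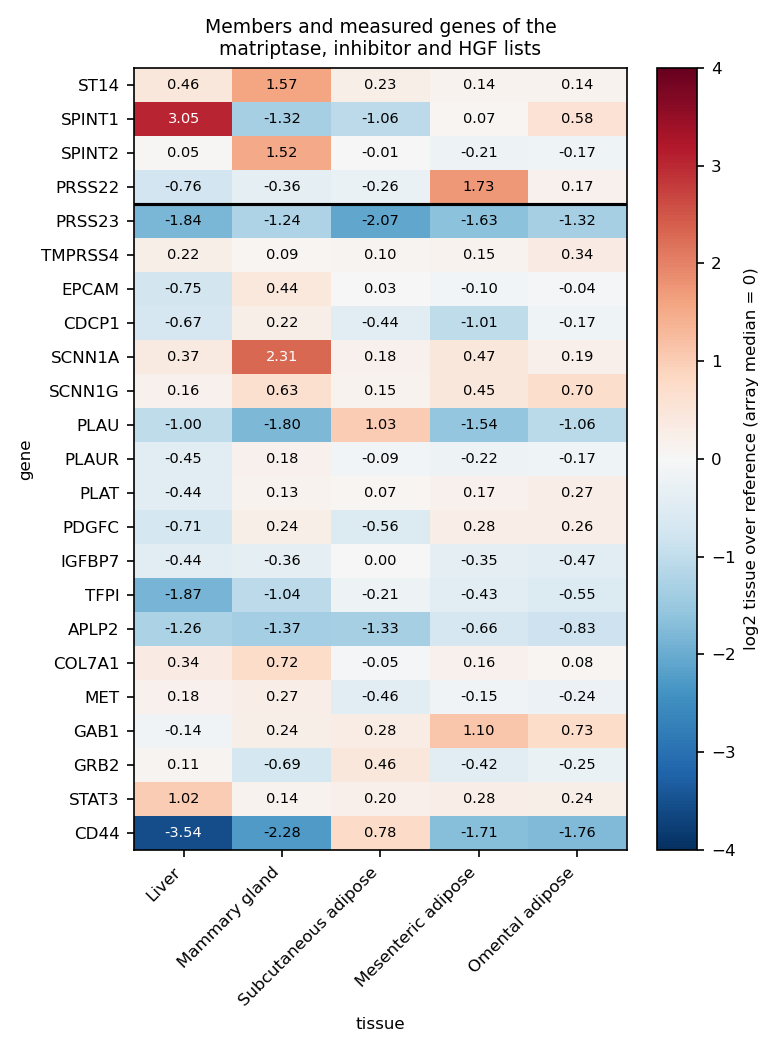
Mean level of the members (above the line) and of the measured genes of the matriptase, Kunitz inhibitor and HGF lists in each tissue, as log2 tissue over reference with the array median at 0. SCNN1A is, like ST14, highest in mammary gland (2.31), and PLAU and CD44 are highest in subcutaneous adipose tissue (1.03 and 0.78).

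The genes with profiles most like each member were taken by Pearson's r over the 10 arrays among 1417 named genes with a range of tissue means of at least 1 log2 unit. The arrays share RNA within a tissue and dye effects within an orientation, so r is a description. Because the genes were chosen by r, sharing a member's highest or lowest tissue largely follows from the choice. For ST14 they were IFI35 (r = 0.97), MAPK13 (0.96), GGT5 (0.96), BSPRY (0.95) and TFAP2A (0.95), all with their highest mean in mammary gland. MAPK13 averaged 2.06 and BSPRY 2.08 in mammary gland, against 0.41 and 0.21 in liver.

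For SPINT1 they were ANXA6 (r = 0.99), MLXIPL (0.98), PHYH (0.98), ACADS (0.98) and IGFBP4 (0.98). MLXIPL encodes a glucose-responsive transcription factor, PHYH a peroxisomal enzyme of branched fatty acid breakdown and ACADS a mitochondrial enzyme of fatty acid oxidation. All 5 had their highest mean in liver, between 2.25 and 3.08, and their lowest in mammary gland.

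For the mean of the SPINT2 clones the most alike genes were SLC37A1 (r = 0.98), EHF (0.96), TMEM214 (0.95), AP2A2 (0.95) and SYT17 (0.95). For the plate 5 clone alone, looked at after the clones were seen to disagree, they were KRT15 (0.98), RETREG1 (0.97), ESRP1 (0.97), KANSL2 (0.96) and GIPC2 (0.95). EHF is an epithelial transcription factor, ESRP1 an epithelial splicing regulator and KRT15 a keratin of basal epithelial cells. For the plate 17 clone the highest r was 0.90, to AMD1. For PRSS22 the list was GEM (0.94), SNRNP70 (0.93), PLCB4 (0.93), LHFPL6 (0.92) and GNG11 (0.90), and rests on spots that disagree.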

How the data were processed

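The deposited table held values of 10 two-colour cDNA arrays. Labelling used 20 ug of RNA and hybridisation lasted 2 days at 42 C, per the labels' protocols, which name a Scanarray 4000 scanner and GenePix 4.0. How the authors corrected background or normalised is not stated in the labels. The unit of the deposited values was read as log2 dye ratio, because 94 of them sat at a ceiling of 16.61, a round ratio on that scale; these were set to missing, beside 2402 missing values. Channel intensities were not used here, so signal over background is unknown, and precision is limited by how many arrays there are.

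The sign was turned on each Cy3-tissue array, because the 2 arrays of a tissue correlated at -0.78 to -0.66 as deposited. The second channel of 1 omental array is described with both dyes; its dye label was used. Each array was centred on its median, which had lain between -1.32 and 0.71. Rows 2k-1 and 2k were averaged as duplicate spots (r = 0.83 to 0.92 per array), and elements of a gene were averaged.

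Annotation identifiers did not match the rows: clones of 1 gene had a mean cosine of 0.01 at face value. Pairings of 3136 annotation layouts with 112 table layouts through source plates were scored on 1347 clone pairs without the members' own clones. The best layout reached a mean cosine of 0.44 (0.84 for 228 pairs with a profile norm over 1), and the next different one 0.13. Plates 1 to 20 were kept. The layout was chosen on these data, and a single clone may still carry a wrong name. Symbols were updated by Entrez identifier through RefSeq's table for ARS-UCD2.0 (5467 of 5472 elements matched). Of the annotation's identifiers 10884 had 1 symbol, 186 several and 5346 none. Names were used from those with 1 symbol, and only within the part of the identifiers that the layouts covered. No coordinates are printed, since no label names the build behind the files, and no sequences were used here.

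The members and lists were chosen with earlier results of these data known. Named genes were the members, the measured genes of the matriptase, HGF and Kunitz lists, those called in the other lists, and the 5 genes most like each member. The steps were tested on simulated data with Python 3.11.15, numpy 2.4.6 and pandas 2.3.3. Alternatives were no centring, quantile normalisation, each dye orientation alone, the median over elements, ceiling values kept, a threshold of 1.5 log2 units, subcutaneous tissue left out of the adipose mean, the omental array with conflicting labels left out and, added after seeing the data, the 10% of elements with the widest duplicate gaps left out.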

Additional observations from a re-analysis of the deposited data

How the results depend on the processing

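No paired analysis was possible because each tissue is 1 RNA sample and its 2 arrays differ by dye only. Of the recomputed differences of single members, 15 moved by more than the SD between orientations and 164 did not. That SD was the gene's own or the root mean square over all genes, whichever was larger. Many of the 164 could not move by this measure. A single orientation never lies further from the mean of both than their SD. The threshold of 1.5 log2 units leaves the difference as it was, and the median of 1 or 2 clones is their mean. The count of 164 is therefore no measure of stability. No called member changed direction. With the tissue in Cy3 alone and in Cy5 alone the count of members called ran from 1 to 3 in liver minus mammary gland and from 1 to 4 in mammary gland minus adipose tissue (PRSS22 passing with the tissue in Cy5, at -1.05), 2 to 2 in liver minus adipose tissue and in subcutaneous minus visceral adipose tissue, and 1 to 1 in mesenteric minus omental adipose tissue. The count of all genes called in mesenteric minus omental adipose tissue ran from 102 to 108 in these, against 61. At 1.5 log2 units the members called were 1 in liver minus mammary gland, 1 in liver minus adipose tissue, 1 in mammary gland minus adipose tissue and 0 in subcutaneous minus visceral adipose tissue, among 309, 285, 164, 196 and, in mesenteric minus omental adipose tissue, 21 genes. Without centring, subcutaneous minus visceral adipose tissue had 0 members and 898 genes called (858 higher, 40 lower, against 270 and 161), with the median of all genes at 0.64, and mesenteric minus omental adipose tissue had 93 genes called (19 higher, 74 lower, against 36 and 25), with that median at -0.33. Centring also set the split in liver minus mammary gland (303 higher, 301 lower without it, against 404 and 192; median -0.22) and in liver minus adipose tissue (232 and 435, against 315 and 262; median -0.32), and quantile normalisation that in mammary gland minus adipose tissue (154 and 219, against 124 and 290). Quantile normalisation also ended the SPINT1 call in mammary gland minus adipose tissue (-0.98, 2 members called), and PRSS22 passed there without subcutaneous tissue (-1.31) and without the omental array in Cy5 (-1.05), with 4 members called in both. Leaving out that array made mesenteric minus omental adipose tissue the same fit as with the tissue in Cy3 alone (108 genes). Leaving out the 10% of elements with the widest duplicate gaps, added after seeing the data, left 1 member called in liver minus adipose tissue, 1 in subcutaneous minus visceral adipose tissue and 0 in mesenteric minus omental adipose tissue, where 21 genes were called; fewer members had a value, since it removes PRSS22. The cause of the other shifts was not tested.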
